A study of Mus musculus with 6 samples.

Results

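Glutamine synthetase, encoded by Glul, was described together with its processed pseudogene Glns-ps1 and the glutamate enzymes Glud1, Got1 and Got2 in heart tissue of 6 mice. These are 5 of the 44792 gene rows of the deposited count table. The rows were selected by gene function, and Glul and Glns-ps1 were chosen by their read counts in these same hearts, so the genotype differences of that pair are given as a description with no test. Of the hearts, 3 were from wild type C57BL/6 mice and 3 from C57BL/6 mice with the cTnI R193H mutation, a substitution in cardiac troponin I, the inhibitory subunit of the thin-filament switch of heart muscle. All mice were 3 months old and untreated. The zygosity of the mutation and how it was introduced are not stated in the labels. Nor do they give the sex of the mice or the part of the heart that was taken.

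Glutamine synthetase joins ammonia to glutamate to form glutamine, using ATP. Glutamate dehydrogenase, the product of Glud1, interconverts glutamate and alpha-ketoglutarate in mitochondria. The aspartate aminotransferases exchange the amino group of glutamate with oxaloacetate, Got1 in the cytosol and Got2 in mitochondria, and together they form part of the malate-aspartate shuttle, which carries reducing equivalents into heart mitochondria. A processed pseudogene is a reverse-transcribed copy of a messenger RNA placed elsewhere in the genome, without introns.

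The copies differ from their parents at few positions, which is shown first because reads from identical stretches cannot be told apart. On GRCm38, Glul lies at chr1:153899944-153909723 on the plus strand, with 7 exons in its main GENCODE transcript of 2792 bases. Glns-ps1 lies at chr11:19720355-19721472 on the plus strand, overlaps no other annotated gene, and copies the coding part of Glul in 1 exon of 1118 bases. Of 1114 aligned bases, 24 were mismatched (97.85% identity), and 2 gaps held 12 bases. The copy starts with the start codon and meets a stop after 50 codons, against 373 codons in Glul. The stretches printed here, with the 5 mismatches in capitals, lie within 1 Glul exon, exon 7. They are the 100 bases with the most mismatches among stretches within 1 exon that hold no gap. They cover chr1:153907904-153908003 for Glul and chr11:19721194-19721293 for Glns-ps1.
Glul: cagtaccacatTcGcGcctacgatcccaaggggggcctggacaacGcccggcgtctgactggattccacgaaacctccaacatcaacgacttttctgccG
Glns-ps1: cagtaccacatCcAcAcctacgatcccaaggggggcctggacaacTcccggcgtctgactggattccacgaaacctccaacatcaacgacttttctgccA

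Between those marked bases the pair reads alike. The longest stretch without a difference was 143 bases. Of all 50-base windows of Glns-ps1, 28.91% occur unchanged in the Glul transcript, against 5.59% of 100-base windows and 0 of 969 windows of 150 bases. The labels state neither the read length nor the treatment of reads that match both places, so the counts of both rows are uncertain to that extent.

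Got2 has a closer copy. Got2-ps1 lies at chr5:138364260-138365552 on the minus strand and matched the Got2 coding sequence over 1293 bases with 11 mismatches and no gap (99.15% identity). It keeps the 430 codons of Got2 without an earlier stop. Its longest stretch without a difference was 315 bases, and 20.45% of its 150-base windows occur unchanged in Got2. The 100 bases with the most mismatches within 1 Got2 exon, exon 5, hold 3, again in capitals. They cover chr8:95872238-95872337 for Got2 and chr5:138365018-138365117 for Got2-ps1, both on the minus strand.
Got2: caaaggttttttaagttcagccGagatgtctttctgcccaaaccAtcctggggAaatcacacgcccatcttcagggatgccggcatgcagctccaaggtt
Got2-ps1: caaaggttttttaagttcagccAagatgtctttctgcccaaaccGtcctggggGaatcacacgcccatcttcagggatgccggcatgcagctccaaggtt

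Glud1 has a partial copy, Glud-ps, at chr7:125075351-125076007, with 16 mismatches over 656 bases (97.56% identity) and no 150-base window in common with Glud1. The differences in Glns-ps1 were not spread evenly, as the plot along the alignments shows.

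**Figure D1:**
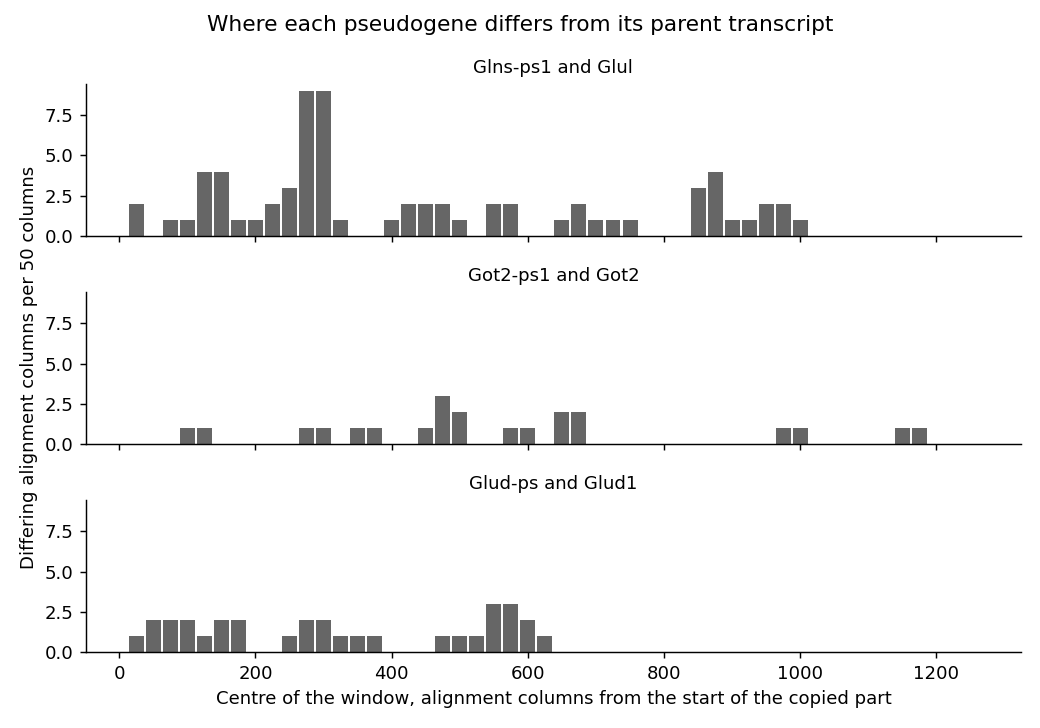
Differing alignment columns (mismatches and gap columns, vertical axis) in windows of 50 columns along Glns-ps1, Got2-ps1 and Glud-ps, each aligned to its parent transcript, with the horizontal axis in columns from the start of the copied part. Glns-ps1 reaches 9 differing columns in 2 overlapping windows, and Got2-ps1 never exceeds 3.

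Library totals ranged from 14736067 to 21852210 counts. Mitochondrially encoded genes took 30.9% to 36.8% of the counts, with the lowest share in R193H replicate 2. Their share was 36.71%, 36.84% and 36.83% in wild type replicates 1, 2 and 3. In R193H replicates 1, 2 and 3 it was 35.18%, 30.93% and 35.4%, below every wild type heart. All 10 cardiomyocyte markers were detected, with a summed level of 56240 to 60050 CPM (the count relative to a library total scaled by the trimmed mean of M values, TMM) in wild type against 51920 to 54940 CPM in R193H. At these totals, a gene with 0 counts in a heart could have a level of up to 0.135 to 0.213 CPM, the value of 3 counts, for counting error only.

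Glul, the enzyme that makes glutamine, was lower in every R193H heart than in any wild type heart. It measured 472, 492 and 576 CPM in wild type replicates 1, 2 and 3, and 357, 268 and 378 CPM in R193H replicates 1, 2 and 3. Means were 514 ± 55.3 and 334 ± 58.6 CPM (SD, n = 3 each), so the R193H mean was 0.651 of the wild type mean. On the log2 scale the fold change was -0.62 (SE 0.136). The groups stood apart, and R193H replicate 2, which also had the lowest mitochondrial share, was the lowest heart. Without that heart the log2 fold change was -0.48, and it stayed between -0.71 and -0.48 with any 1 heart left out. In whole tissue, fewer cells that express Glul and less Glul RNA per cell cannot be told apart.

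Glns-ps1, the pseudogene, stood the other way. It had 7, 8 and 12 reads in wild type replicates 1, 2 and 3, and 44, 36 and 51 reads in R193H replicates 1, 2 and 3. Scaled to the libraries, these were 0.497, 0.485 and 0.601 CPM against 1.98, 1.65 and 2.38 CPM. The R193H mean was 3.79 times the wild type mean, a log2 fold change of 1.90 (SE 0.320). The highest wild type count, 12, has an exact 95% Poisson interval of 6.2 to 21 and the lowest R193H count, 36, one of 25.2 to 49.8, which cover counting error only and not the spread between hearts. With any 1 heart left out the log2 fold change stayed between 1.77 and 2.02.

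Among the genes tested in edgeR, 5.8% had all R193H hearts below all wild type hearts, as Glul did, and 6.02% had them all above, as Glns-ps1 did. Neither row was called at an adjusted p under 0.05, where 1 of 14370 genes was (0.00696%). DESeq2 called both rows, among 40 genes (0.275% of those it tested), and both were also called by edgeR with all rows kept, among 38 (0.16%). Because the pair was chosen on this contrast, nothing is read from these calls.

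**Figure D2:**
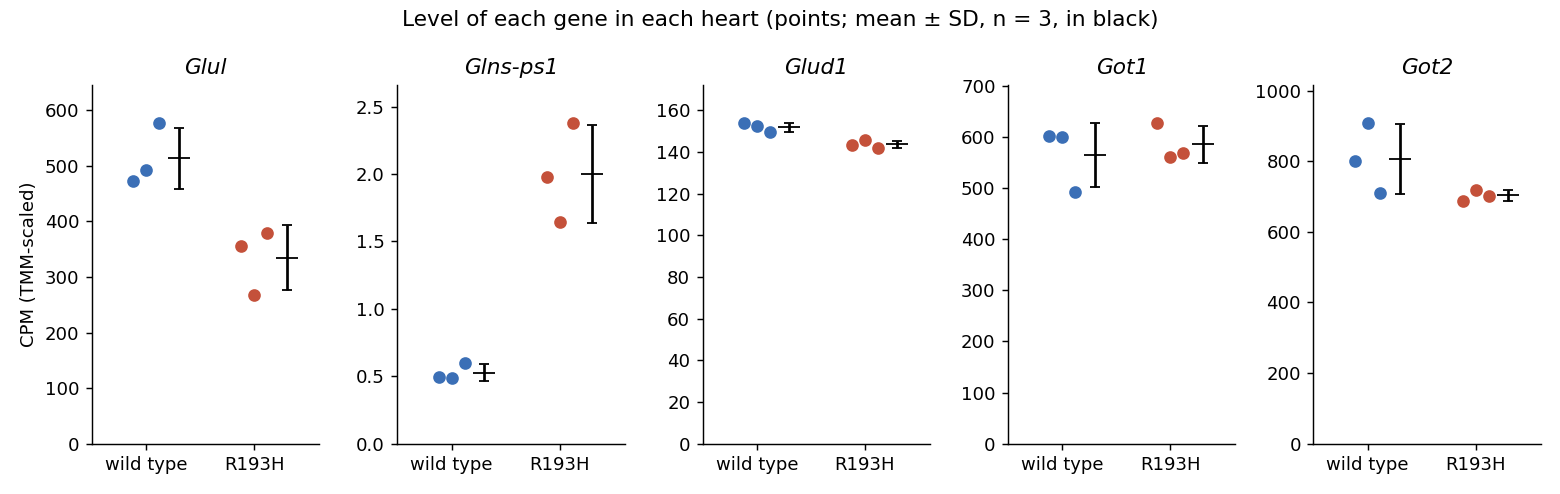
Level of Glul, Glns-ps1, Glud1, Got1 and Got2 in CPM (vertical axes from 0, each gene on its own scale) in the 3 wild type (blue) and 3 R193H (red) hearts, with the mean and SD in black. Glul falls from a mean of 514 to 334 CPM and Glns-ps1 rises from 0.528 to 2.0 CPM, while the means of Got1 are 565 and 585 CPM with overlapping hearts.

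The sizes of both differences were set side by side. The mean of Glul was 179 CPM lower in R193H hearts and that of Glns-ps1 1.47 CPM higher, so the gain of the pseudogene equalled 0.821% of the loss of the gene. Summed, the rows gave 514 ± 55.3 CPM in wild type against 336 ± 58.9 CPM in R193H (SD, n = 3 each). Over the 6 hearts the sum had a coefficient of variation of 25.9%, against 26.1% for Glul alone and 66.5% for Glns-ps1. Since Glns-ps1 gave under 1% of the summed counts, the sum had to follow Glul, and its spread does not bear on whether reads were exchanged between the rows. With both rows counted as 1 gene, the log2 fold change was -0.61, close to that of Glul.

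The order of the hearts within a genotype was compared next. Among R193H hearts, replicate 3 was the highest and replicate 2 the lowest for both Glul and Glns-ps1. Among wild type hearts, replicate 3 was the highest for both, and replicates 1 and 2 differed in Glns-ps1 by 1 read. Exact 95% Poisson intervals of the Glns-ps1 counts overlapped among the hearts of each genotype. For R193H replicates 1, 2 and 3 they were 32.0 to 59.1, 25.2 to 49.8 and 38.0 to 67.1. The order of Glns-ps1 within a genotype is thus not resolved from counting error. The 6 hearts form 2 clusters that match the genotypes, with 3 hearts in each, and the pair was chosen by these counts, so a correlation over all hearts is no test of a trade-off. Whether reads were exchanged between the rows was not tested.

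The share of Glns-ps1 in the summed counts of the pair, which does not depend on library scaling, differed little between the hearts of a genotype. It was 0.105%, 0.0984% and 0.104% in wild type replicates 1, 2 and 3, and 0.552%, 0.611% and 0.624% in R193H replicates 1, 2 and 3. The exact 95% binomial intervals of single hearts, which cover counting error only, lay within 0.0422% to 0.216% for wild type and 0.401% to 0.845% for R193H. Each interval was wider than the spread of the shares within its genotype, so these reads cannot show how constant the share is. The means were 0.103% ± 0.00361 and 0.596% ± 0.0385 (SD, n = 3 each), a ratio of 5.81. At the wild type ratio, the Glul counts of R193H replicates 1, 2 and 3 would go with 8.15, 6.01 and 8.35 reads of Glns-ps1, and 44, 36 and 51 were counted.

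**Figure D3:**
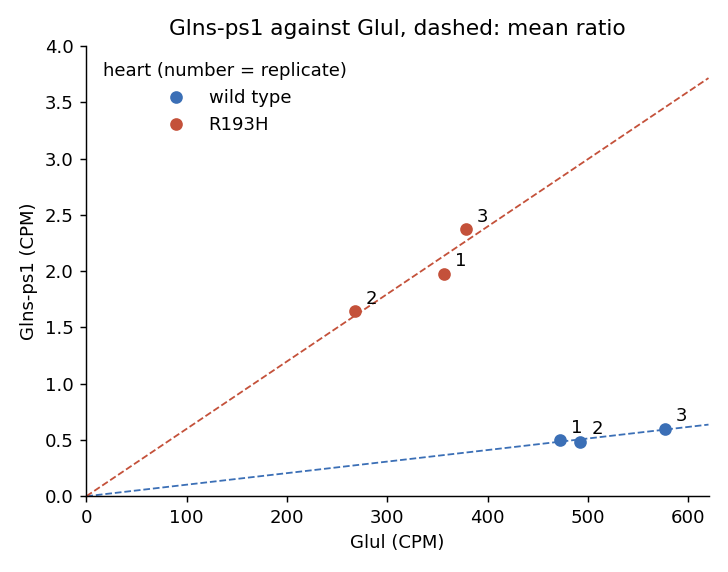
Glns-ps1 (vertical axis, CPM) against Glul (horizontal axis, CPM) in each heart, numbered by replicate, with dashed lines through 0 at the mean ratio of each genotype. The 3 wild type hearts (blue) and the 3 R193H hearts (red) lie near separate lines, each drawn from those same hearts. In each genotype the heart with the most Glul has the most Glns-ps1. That order of Glns-ps1 is not resolved from counting error.

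Other pseudogenes of these enzymes were compared with their parents in the same way. Got2-ps1 measured 47.3, 50.1 and 43.6 CPM in wild type and 40.8, 49.4 and 38.9 CPM in R193H replicates 1, 2 and 3, with overlapping groups. The log2 fold change of Got2-ps1 was -0.13 (SE 0.105, edgeR adjusted p = 0.901), beside -0.20 for Got2, and it turned to 0.0071 under scaling to library totals. Its share of the summed counts with Got2 was 5.53% ± 0.278 in wild type against 5.76% ± 0.600 in R193H (SD, n = 3 each), and the log2 ratio of the rows differed by 0.057 between genotypes, with overlapping hearts. Glud-ps had 2, 4 and 7 reads in wild type and 9, 11 and 9 reads in R193H replicates 1, 2 and 3, too few to be tested in edgeR. Its share with Glud1 was 0.162% ± 0.0709 and 0.307% ± 0.0332 (SD, n = 3 each). All R193H shares of Glud-ps, from 0.282% to 0.345%, were above all wild type shares, from 0.0922% to 0.234%, a ratio of means of 1.9 in the direction of Glns-ps1. With 2 to 11 reads per heart, exact intervals of single hearts overlapped between the genotypes.

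Among all 129 tested rows whose symbol ends in -ps, 74 had a higher mean in R193H hearts, the median log2 fold change was 0.026, and none was called. In 10 of them the R193H hearts were all higher than any wild type heart, and in 4 all were lower, beside 6.02% and 5.8% of all genes tested. A further pair of annotated Glul copies could be matched to rows. Gm4949, with 95% identity over 1098 bases, had 0 reads in each wild type heart and 2, 4 and 1 reads in R193H replicates 1, 2 and 3. With 7 reads in all it was not tested, and a count of 0 allows up to 3 reads per heart. Gm8642, with 90.2% identity, had 0 reads in all hearts.

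**Figure D4:**
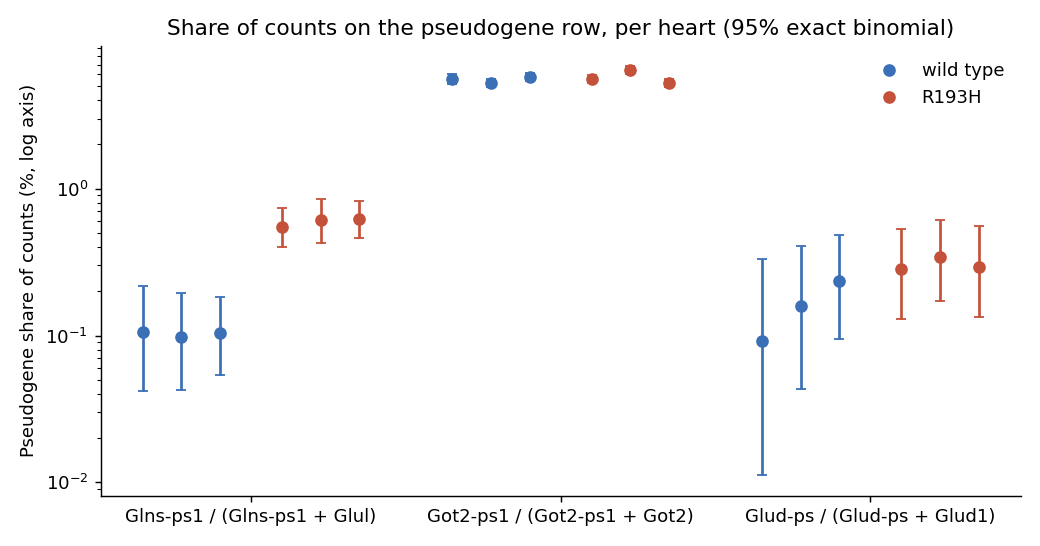
Share of counts on the pseudogene row (percent, log axis) for each heart and each of 3 pairs of pseudogene and parent, wild type in blue and R193H in red, with exact 95% binomial intervals. The Glns-ps1 shares fall at 0.0984% to 0.105% in wild type and 0.552% to 0.624% in R193H hearts, the Glud-ps shares at 0.0922% to 0.234% and 0.282% to 0.345%, and the Got2-ps1 shares overlap between genotypes.

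None of the protein-coding genes compared on either side of Glns-ps1 was called, and several lie far from it. The nearest 3 in the table on 1 side were C1d, Etaa1 and Meis1, at 2450, 1770 and 701 kb. On the other side they were Spred2, Actr2 and Cep68, at 203, 341 and 506 kb. Their log2 fold changes ranged from -0.17 for Cep68 to 0.36 for Etaa1 (SE 0.0815 and 0.237, edgeR adjusted p from 0.866 to 0.99). Spred2, an inhibitor of Ras signalling and the closest at 203 kb, stood at -0.11 (SE 0.107). On the sides of Glul, Rgs16, Cacna1e and Ier5, at 154, 481 and 1190 kb, stood at 0.20, 0.062 and 0.049. None of them was called, and Rgsl1 and Zfp648 had too few reads to be tested.

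Glud1, glutamate dehydrogenase, varied little between hearts. It measured 153.8, 152.5 and 149.5 CPM in wild type and 143.2, 145.6 and 142.2 CPM in R193H replicates 1, 2 and 3. All R193H hearts were below all wild type hearts, as for 5.8% of genes tested, and the log2 fold change of -0.081 (SE 0.0711) missed the threshold (edgeR adjusted p = 0.906). Scaling to library totals shifted the median over all genes tested from -0.00036 to 0.13, and Glud1 then stood at 0.047. Relative to that shifted median Glud1 was still lower. The same shift put Got1 at 0.18 and Got2 at -0.068, neither of them called.

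Got1, the cytosolic aspartate aminotransferase, measured 601.0, 600.4 and 492.9 CPM in wild type and 626.4, 560.0 and 569.1 CPM in R193H replicates 1, 2 and 3. The groups overlapped, with wild type replicate 3 the lowest of all hearts. Its log2 fold change was 0.051 (SE 0.1, edgeR adjusted p = 0.959), and it turned to -0.038 without that heart and to -0.0012 without R193H replicate 1. Got2, the mitochondrial form, measured 801.7, 907.3 and 710.2 CPM in wild type and 688.1, 719.5 and 701.8 CPM in R193H replicates 1, 2 and 3. Its wild type hearts were spread widely and its R193H hearts lay close together near the lowest of them. The log2 fold change of Got2 was -0.20 (SE 0.0992, edgeR adjusted p = 0.867), and -0.11 without wild type replicate 2, its highest heart.

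Per kilobase of the main GENCODE transcript, the aminotransferases were the most abundant of these rows. In wild type hearts, Got2 stood at 319 ± 39.0 and Got1 at 274 ± 30.2 CPM per kilobase (SD, n = 3 each), with overlapping hearts. Glul followed at 184 ± 19.8, below every heart of Got1, and Glud1 at 44.8 ± 0.644 CPM per kilobase. Got2-ps1 stood at 36.4 ± 2.52, which is below Glud1 in every wild type heart. Glns-ps1 and Glud-ps were lowest at 0.472 ± 0.0572 and 0.373 ± 0.159 CPM per kilobase, with overlapping hearts. In R193H hearts the order of the level per kilobase began with Got1 at 284 ± 17.5 and Got2 at 278 ± 6.22, which overlapped, and Glul stood at 119.7 ± 20.98.

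In edgeR with its filter, no gene of the pathway lists was called. Gls2, an enzyme that releases ammonia from glutamine, was near the detection limit at 0.377 and 0.536 CPM and was not tested, and Lgsn, a lens relative of Glul, had 0 reads in all hearts. Among 10 tested glutamate transaminases, 4 had higher and 6 lower means, none was called, and the median log2 fold change was -0.017, beside -0.00036 over all genes tested. The alanine aminotransferases Gpt and Gpt2 stood at -0.025 (SE 0.122) and -0.052 (SE 0.105), and the kynurenine aminotransferase Ccbl1, now named Kyat1, at -0.13 (SE 0.108). All 3 turned positive under library totals, at 0.106, 0.0736 and 0.0031. The branched-chain aminotransferase Bcat1, at 0.981 and 1.51 CPM, stood at 0.61 with an SE of 0.375, and the serine-pathway enzyme Psat1 at 0.35 with an SE of 0.260.

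Members of the malate-aspartate shuttle, which include Got1 and Got2, had 5 lower and 2 higher means among 7, with a median of -0.13 and none called. The aspartate-glutamate carrier Slc25a13 was the first in order of p, at 142 ± 16.7 and 120.0 ± 6.61 CPM (log2 fold change -0.24, SE 0.0986, edgeR adjusted p = 0.816). The related carrier Slc25a12 stood at -0.064 (SE 0.0803) and the malate carrier Slc25a11 at -0.13 (SE 0.0954), and both turned positive under library totals, at 0.063 and 0.0017. Malate dehydrogenase is cytosolic as Mdh1, at 0.023 (SE 0.0765), and mitochondrial as Mdh2, at -0.14 (SE 0.0791).

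Carriers of glutamine and glutamate differed in both directions, with 7 higher and 9 lower means among 16 tested and none called. At an unadjusted p under 0.05 were 3 of them, beside 5.73% of all genes tested. Slc7a8, an exchanger of neutral amino acids, measured 2.20, 3.27 and 2.86 CPM in wild type and 5.04, 5.58 and 3.45 CPM in R193H replicates 1, 2 and 3 (log2 fold change 0.75, SE 0.240, edgeR adjusted p = 0.722). Slc38a9, a lysosomal amino acid sensor, measured 5.25 ± 0.104 and 3.68 ± 0.409 CPM (log2 fold change -0.51, SE 0.166, edgeR adjusted p = 0.722). Slc38a3, a glutamine transporter, stood at -0.27 (SE 0.0996, edgeR adjusted p = 0.781). In each of these 3, and in Slc1a3, the groups did not overlap, as for 5.8% of all genes tested in the lower and 6.02% in the higher direction. The glutamine carriers Slc1a5 and Slc38a2 stood at 0.13 (SE 0.124) and -0.084 (SE 0.155), the latter turning to 0.032 under library totals, and the glial-type glutamate transporter Slc1a3 at 0.42 (SE 0.218).

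Enzymes that spend glutamine nitrogen had 7 higher and 6 lower means among 13, with a median of 0.012 and none called. Cad, which starts pyrimidine synthesis, stood at 0.40 (SE 0.198), and asparagine synthetase, Asns, at 0.10 (SE 0.336). GMP synthetase, Gmps, stood at -0.18 (SE 0.114), Pet112, a subunit of the mitochondrial amidotransferase now named Gatb, at -0.14 (SE 0.102), and the hexosamine enzyme Gfpt2 at 0.10 (SE 0.124). Proline and glutathione synthesis from glutamate had 5 higher and 5 lower means among 10, none called, with Prodh, which degrades proline, at -0.22 (SE 0.131). Aldh4a1, the next enzyme of proline breakdown, stood at -0.18 (SE 0.101), Aldh18a1, which starts proline synthesis, at 0.25 (SE 0.170), and the glutathione enzyme Gclc at 0.17 (SE 0.131). Glucocorticoids are known to raise Glul in muscle. Of 14 tested glucocorticoid-response genes, 5 had higher and 9 lower means, the median was -0.055, and none was called or had an unadjusted p under 0.05. Those with the smallest p were Hsd11b1, which regenerates active glucocorticoid, at 0.31 (SE 0.229), Pdk4, a kinase that inhibits pyruvate dehydrogenase, at 0.32 (SE 0.277), Cdkn1a at 0.42 (SE 0.369), and Klf9 at -0.093 (SE 0.0992), which turned to 0.032 under library totals. In the cereblon ubiquitin ligase, which marks glutamine synthetase protein for degradation, the scaffold Cul4a stood at -0.20 (SE 0.0738, edgeR adjusted p = 0.774), Ddb1 at -0.11, Crbn at -0.081 and Rbx1 at 0.065, none called among 5. Ddb1 and Crbn turned to 0.022 and 0.040 under library totals.

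**Figure D5:**
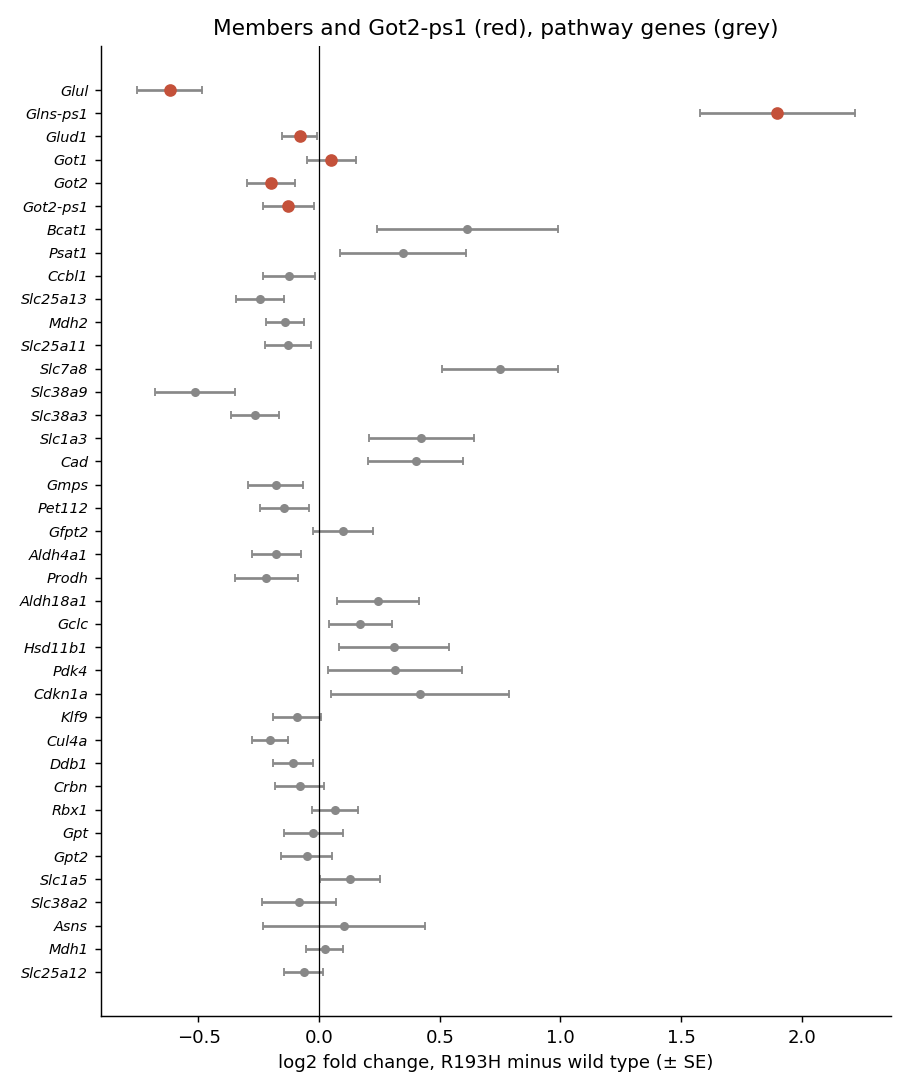
Log2 fold change of R193H against wild type hearts from edgeR with its SE (horizontal axis) for the 5 rows described and Got2-ps1 (red) and for the tested pathway genes named by rule (grey). Glns-ps1 at 1.90 and Glul at -0.62 lie on opposite sides, and Glud1, Got1 and Got2 lie at -0.081, 0.051 and -0.20.

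Summed TMM-scaled marker levels of 2 of the 9 cell type lists did not overlap between the genotypes. No single marker was called in edgeR. Of all single genes tested, 5.8% did not overlap in the lower and 6.02% in the higher direction. All 8 macrophage markers had higher means in R193H hearts, 6 of them at an unadjusted edgeR p under 0.05, beside 5.73% of all genes tested. Their summed level was 190.0 to 225.4 CPM in wild type against 242.3 to 334.3 CPM in R193H. Lower means were found for 8 of 10 cardiomyocyte markers, with the sums given above, and higher ones for Actc1 and Tnni3. The TMM factors were 0.9472 to 0.9675 in wild type and 1.001 to 1.118 in R193H hearts. Without these factors the cardiomyocyte sums overlap between the genotypes. No defining marker of either list was at 0. The summed ranges of the atrial, endothelial, fibroblast, adipocyte, erythroid, nerve, and pericyte and smooth muscle lists overlapped between the genotypes. Means in 1 direction were not particular to macrophage markers. All 8 endothelial markers had higher means, and all tested atrial (5), adipocyte (5) and erythroid (6) markers lower ones. The fibroblast, nerve, and pericyte and smooth muscle lists held both directions. In these lists 0 markers had an unadjusted edgeR p under 0.05. The atrial and erythroid sums varied most among wild type hearts, from 87.05 to 730.2 CPM and from 274.1 to 3136 CPM. The part of these cells in the levels of Glul and Glns-ps1 was not tested.

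Finally, the genes whose levels followed each row most closely over the 6 hearts were taken from those with a mean of at least 10 CPM, 7632 in number for Glul, leaving out provisional symbols. For Glul these were Dvl3, Immt and Sbk1 (Pearson r of log2 CPM 0.996, 0.988 and 0.985), and 156 genes had an r over 0.9. For Glns-ps1 they were Ap2m1, Med10 and Laptm4a (0.974, 0.97 and 0.963), for Glud1 they were Asb1, Smad7 and Zfand3 (0.993, 0.985 and 0.981), and for Got1 they were Sec31a, Zfyve19 and Slc12a7 (0.972, 0.966 and 0.961). For Got2 they were Ppp1r12b, the glucose transporter gene Slc2a4, and Adam11 (0.995, 0.993 and 0.993). With 6 hearts in 2 genotypes, which share library totals and scaling, these values describe the hearts and were not tested.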

How the data were processed

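The authors deposited whole-number read counts per gene symbol for 6 hearts, 1 column per heart, not normalized. HISAT2 2.0.4 was the aligner and GRCm38 the build, per the submitters' processing notes. How reads were assigned to genes (program, strand, reads with several matches, annotation) is not given in the sources used here, so rows of near-identical copies are uncertain. Columns were matched to hearts by their titles and grouped by the genotype label. Replicate numbers follow the order of listing and pair no hearts.

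The whole table was fitted with edgeR 4.0.16 in R 4.3.3 (filterByExpr, TMM, robust quasi-likelihood test, Benjamini-Hochberg adjustment over 14370 genes, threshold 0.05). CPM values use TMM-scaled totals, and log2 CPM a prior count of 2. The SE of a fold change is its size divided by the square root of the test's F. Alternatives were other scalings, filters, DESeq2 1.42.0, limma-voom in limma 3.58.1, a summed pair row, each heart left out, and a non-robust fit added after seeing the data. The edgeR script was checked on simulated data. Exact intervals were computed with scipy 1.17.1. Pseudogenes were aligned to their parents with Biopython 1.88 on GENCODE M21 transcripts, whose build is GRCm38, and the copies of Glud1 and Got2, the neighbouring genes and the count over -ps rows were added after seeing the data. Members and lists were chosen with earlier results of these data known. Named genes were the members, their -ps rows, up to 4 genes of each pathway list by smallest p, 10 listed enzymes and carriers next to glutamine or glutamate, and the 3 genes most like each member. The exact tests planned for Glul and Glns-ps1, of their share between genotypes and their relation across hearts, are not printed, since the pair was chosen on that contrast. Some genes that these rules cover are not reported here.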

Additional observations from a re-analysis of the deposited data

How the results depend on the processing

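The opposite directions of Glul and Glns-ps1 held under every scaling, filter, tool and left-out heart tried. All these settings reuse the counts by which the pair was chosen, so this is a description and no separate support. The number of genes called was 1, and it became 0 without mitochondrially encoded genes, 38 without a filter on low counts, 40 in DESeq2 and 3 to 21 with 1 heart left out, 21 without R193H replicate 3. Of the 5 members, 0 were called in edgeR with a filter, in limma-voom and with any heart left out. Glul and Glns-ps1 were called in edgeR without a filter, among 38 genes (0.16%), and in DESeq2, among 40 (0.275%). Over the other settings the edgeR adjusted p was at least 0.134 for Glul and 0.149 for Glns-ps1. Because the pair was chosen on this contrast, nothing is read from these calls. The rise in the pseudogene share, 0.493 percentage points, ranged from 0.479 to 0.515 with 1 heart left out.

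As a description of a pair chosen by these counts, with no test, the pooled correlation of Glul and Glns-ps1 over 6 hearts was Pearson r = -0.769 and Spearman rho = -0.6. The hearts form 2 genotype clusters, and r was -0.966 without the 2 hearts farthest from the Glul median, -0.18 on raw counts, and -0.867 to -0.741 with 1 heart left out. From deviations within genotypes it was 0.94, the reverse direction. That value rests on differences in Glns-ps1 reads within a genotype that lie inside counting error, so no conclusion is drawn from it. Under library totals the sign turned for Glud1 (0.0474), Got2-ps1 (0.00712), Ccbl1 (0.00306), Slc25a11 (0.00172), Klf9 (0.0317), Ddb1 (0.0215), Crbn (0.0395), Gpt (0.106), Gpt2 (0.0736), Slc38a2 (0.0324) and Slc25a12 (0.063). With 1 heart left out it turned at 1 end of the range for Got1 (-0.0383 to 0.0968), Gpt (-0.154 to 0.0741), Gpt2 (-0.146 to 0.0172), Asns (-0.276 to 0.4), Gfpt2 (-0.0188 to 0.193), Crbn (-0.132 to 0.0156), Klf9 (-0.151 to 0.00192) and Slc38a2 (-0.249 to 0.0591). Under library totals the median over all genes tested also moved, from -0.00036 to 0.13. The cause of the changes with 1 heart left out was not tested. With 7 to 12 reads of Glns-ps1 per wild type heart, depth limits the precision of its fold change and share.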
